A study of Sus scrofa with 12 samples.

Results

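The osteoclast gene set described here held 10 genes: ACP5, CTSK, DCSTAMP, OCSTAMP, ATP6V0D2, CALCR, CKB, TNFRSF11A, TNFSF11 and TNFRSF11B. They were chosen by name, as genes known from osteoclasts, after earlier results of these same libraries were known, so their values between regions are given as a description and not as a test. All 10 of the 10 genes had an identifier among the 35682 genes counted, and 5 of them had enough reads to enter the fit across all genes. RNA was sequenced from the left ventricle of 6 Yorkshire pigs, with 1 library from the border zone next to the infarct and 1 from the remote zone of the posterior wall of each animal, giving 12 libraries and n = 6 per region. Every animal was a female of 10 to 12 weeks, and in every animal the left anterior descending coronary artery was closed by a balloon for 60 min. All animals were immunosuppressed from day 9, with tacrolimus at a daily 0.75 mg/kg and with daily doses of 500 mg for mycophenolate mofetil and 20 mg for prednisolone. On day 14 each received either vascular organoids held in place with fibrin glue or fibrin glue alone. The organoids were built from human endothelial progenitor and smooth muscle cells. Hearts were taken 4 weeks after that operation. The labels give the region and the animal number but not which animals received organoids, so both regions mix the treatments, no comparison between treatments was made, and no uninjured heart was among these libraries. Animals are named here by their numbers, 1022, 1322, 1323, 1623, 1922 and 3622.

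Osteoclasts are multinucleated cells that form by fusion of macrophage precursors and dissolve bone. CSF1 keeps the precursors alive through its receptor CSF1R, and RANKL, the product of TNFSF11, acts on its receptor RANK, the product of TNFRSF11A, to switch on TRAF6 and then NFATC1. Osteoprotegerin, the product of TNFRSF11B, is a soluble decoy that binds RANKL. DCSTAMP and OCSTAMP encode membrane proteins needed for fusion, ATP6V0D2 a subunit of the proton pump that acidifies the resorption space, CTSK the collagen-degrading protease cathepsin K, ACP5 the tartrate-resistant acid phosphatase used to stain osteoclasts, CALCR the calcitonin receptor, and CKB the brain-type creatine kinase. Several of these genes are also used outside bone: CTSK by activated fibroblasts, CKB and TNFRSF11B by many tissues, and ACP5 and CTSK by macrophages that fuse into giant cells.

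Levels are given as CPM, the counts of a gene set against its library's total after TMM scaling, which corrects that total for differences in composition between libraries. The border libraries held 15130210 to 30526110 counts and the remote libraries 20091415 to 31618680, so that 3 counts, taken here as the limit that a count of 0 allows, stood for 0.0883 to 0.183 CPM and 0.0988 to 0.201 CPM. Intervals and such limits cover counting error only. The border library of animal 3622 listed 28024 genes against 16932 to 20148 in the other 11 libraries. The mitochondrial share of counts was 5.69% to 17.3% among border and 13.6% to 33.5% among remote libraries. The border library of animal 1022 stood apart in its markers: the summed level of 8 cardiomyocyte markers was 9571 CPM there against 35211 to 63893 CPM in the other border libraries, and that of 11 fibroblast and matrix markers was 70052 CPM against 3261 to 12016 CPM.

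ACP5 and CTSK, the enzymes of the resorbing osteoclast, were the most abundant members per base of transcript in the border zone of animal 1022. In the border zone, ACP5 stood at 646 CPM in animal 1022, 1.31 in 1322, 1.47 in 1323, 73.3 in 1623, 1.26 in 1922 and 2.63 in 3622. In the remote zone of the same animals, ACP5 was at 1.23, 0.872, 0.461, 0.572, 0.780 and 1.47 CPM. The border libraries of animals 1022 and 1623 were thus far above all others, while of the other 4 border values those of 1322 and 1922 lay inside the remote range, that of 1323 was at its top and that of 3622 above it, so the regions overlapped. Behind these levels were 19557 ACP5 counts in the border zone of animal 1022 and 2134 in that of animal 1623, against 14 to 31 in the remote libraries. Within each animal the border zone had the higher ACP5 level in 6 of 6, by 527-fold in animal 1022, 128-fold in animal 1623 and 1.51-fold to 3.19-fold in the rest. Here and for every gene below, fewer cells of a type and less RNA per cell cannot be told apart in bulk tissue.

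CTSK, unlike ACP5, had a substantial level in every library, from 11.4 CPM upwards. Its border values were 956 CPM in animal 1022, 19.1 in 1322, 30.0 in 1323, 147 in 1623, 33.8 in 1922 and 25.7 in 3622. Its remote values were 12.1, 18.3, 16.5, 16.9, 11.4 and 17.7 CPM in the same order. All 6 border values lay above all 6 remote values, so the regions did not overlap, although the lowest border and the highest remote value, both of animal 1322, were close. The ratio of border to remote zone was 79.1 in animal 1022, 8.72 in animal 1623 and between 1.04 and 2.95 in the other animals. Per kilobase of the exons that RefSeq gives each gene, the border zone of animal 1022 held 311 CPM of ACP5, 260 CPM of CTSK and 82.8 CPM of CKB, and that of animal 1623 held 35.2, 40.1 and 41.0 CPM.

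ATP6V0D2, the pump subunit variant of osteoclasts, had no read in any remote library. Its border levels were 38.8 CPM in animal 1022, 0.0487 in 1322, 0 in 1323, 6.73 in 1623, 0 in 1922 and 0.245 in 3622. These came from 1175 counts in animal 1022, 196 in animal 1623 and at most 4 in the others. A total of 0 counts in the 6 remote libraries allows up to 0.0219 CPM over the group, so the level was at least 1769-fold higher in the border library of animal 1022 and at least 307-fold higher in that of animal 1623. ATP6V0D1, the widely used form of the same subunit, was at 43.3 to 59.8 CPM in the border zone and 45.5 to 54.7 CPM in the remote zone, with a log2 fold change of 0.09 (SE 0.13, edgeR adjusted p = 0.701).

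The fusion genes had few reads and were likewise highest in the border zone of animal 1022. DCSTAMP was at 7.60 CPM (230 counts) in the border zone of animal 1022 and 0.927 CPM (27 counts) in that of animal 1623, with at most 5 counts in any other library. OCSTAMP reached 34 counts, 1.12 CPM, in the border zone of animal 1022 and 4 counts or fewer elsewhere. Over all 6 remote libraries there were 2 DCSTAMP and 5 OCSTAMP counts. A difference in OCSTAMP between regions in the other 5 animals was not detectable at this depth.

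CALCR was at 10.9 CPM (331 counts) in the border zone of animal 1022 and 0.790 CPM (23 counts) in that of animal 1623. In the border zone of 1322, 1323, 1922 and 3622 it was at 0.0974, 0.324, 0.194 and 0.245 CPM. In the remote zone it lay between 0 and 0.114 CPM in 5 animals and at 0.527 CPM (16 counts) in animal 1323. The remote value of animal 1323 was therefore above 4 of the 6 border values, and the regions overlapped.

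CKB differed from the genes above in that it was higher in the border zone by a similar amount in most animals. Its border levels were 134 CPM in animal 1022, 42.9 in 1322, 41.8 in 1323, 66.4 in 1623, 26.8 in 1922 and 65.1 in 3622. Its remote levels were 50.9, 16.8, 33.3, 15.7, 15.02 and 19.7 CPM. The ratio of border to remote zone ran from 1.26 in animal 1323 to 4.23 in animal 1623 and was above 1 in 6 of 6 animals, and the regions overlapped because the remote zones of animals 1022 and 1323 were themselves high. CKM, the muscle creatine kinase that cardiomyocytes use, was at 1508 to 12348 CPM in the border zone and 9541 to 16974 CPM in the remote zone.

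**Figure D1:**
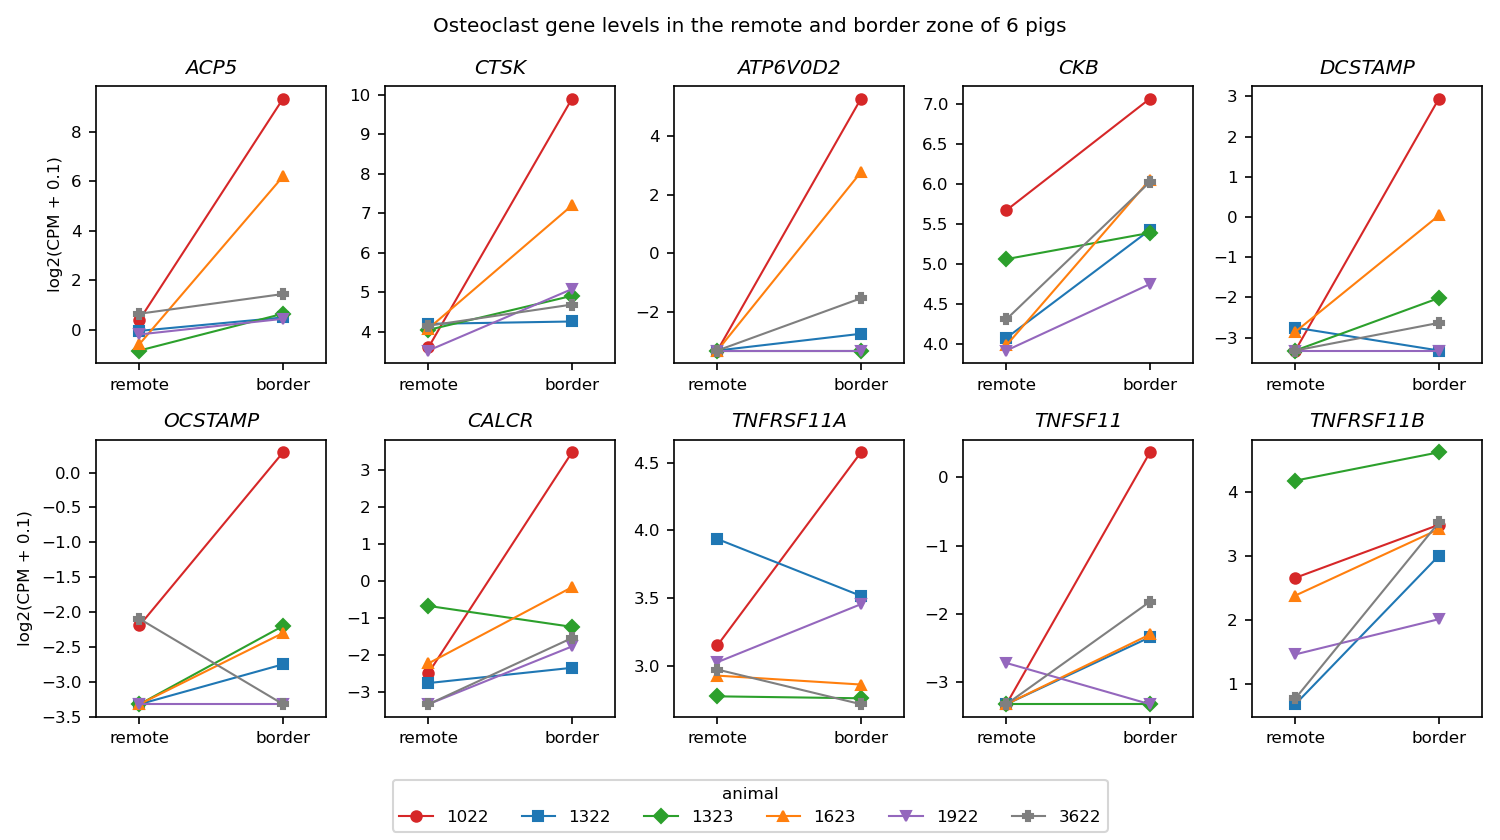
Levels of the 10 genes as log2(CPM + 0.1) in the remote and border zone, with 1 line and 1 symbol per animal (6 animals, 12 libraries; the vertical axes differ between panels). The border libraries of animals 1022 (646 CPM) and 1623 (73.3 CPM) stand above the rest for ACP5, and for CTSK, ATP6V0D2, DCSTAMP and CALCR the same pair is highest, while TNFRSF11B is highest in animal 1323 in both zones.

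The ligand, the receptor and the decoy did not share 1 pattern. TNFSF11, the ligand, was almost absent: it had 36 counts (1.19 CPM) in the border zone of animal 1022, 3 counts or fewer in each other border library and 1 count in all 6 remote libraries together. TNFRSF11A, its receptor, was present throughout, at 23.8 CPM in the border zone of animal 1022, 11.3 in 1322, 6.68 in 1323, 7.18 in 1623, 10.9 in 1922 and 6.48 in 3622. The remote values of TNFRSF11A were 8.79, 15.2, 6.75, 7.51, 8.06 and 7.76 CPM. The receptor was thus highest in the border zone of animal 1022, yet it was higher in the border than in the remote zone in only 2 of 6 animals, and in animal 1623, second in ACP5, its border and remote levels had a ratio of 0.955.

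TNFRSF11B, the decoy, was highest in animal 1323, at 24.6 CPM in the border and 18.0 CPM in the remote zone. Its other border levels were 11.14 CPM in animal 1022, 7.94 in 1322, 10.6 in 1623, 3.93 in 1922 and 11.4 in 3622, and its other remote levels were 6.22, 1.502, 5.11, 2.65 and 1.60 CPM. The border zone was higher in 6 of 6 animals, by 1.36-fold to 7.12-fold, with a median within-animal difference of 0.94 on the log2(CPM + 0.1) scale (SD 0.98, n = 6). The ratio of TNFSF11 to TNFRSF11B in CPM was 0.107 in the border zone of animal 1022 and at most 0.0196 in the other 11 libraries.

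The border library of animal 1022 supplied most of the border reads of 7 members, after scaling: 89.0% of the summed border CPM of ACP5, 78.9% of CTSK, 84.7% of ATP6V0D2, 87.0% of DCSTAMP, 80.7% of OCSTAMP, 86.9% of CALCR and 75.6% of TNFSF11. It held 35.6% of CKB, 35.8% of TNFRSF11A and 16.0% of TNFRSF11B. The level in the border zone of animal 1022 over that of animal 1623 was 8.82 for ACP5 (95% exact interval of the counts 8.43 to 9.23), 6.50 for CTSK (6.30 to 6.72) and 5.77 for ATP6V0D2 (4.96 to 6.75). For DCSTAMP the ratio was 8.20 (5.49 to 12.7), for CALCR 13.8 (9.07 to 22.2) and for TNFRSF11B 1.05 (0.897 to 1.23). The ratios of ACP5 and DCSTAMP overlapped within counting error, while that of ATP6V0D2 was lower than that of ACP5 and that of TNFRSF11B was near 1.

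In the fit across all 13844 genes tested (edgeR quasi-likelihood test, a gene being called at a Benjamini-Hochberg adjusted p under 0.05), 2.06% of genes were called higher and 0.0144% lower in the border zone. Of the 5 members in the fit 1 was called, ACP5, and it was higher, just inside the threshold (edgeR adjusted p = 0.0493). CTSK was just outside it (edgeR adjusted p = 0.0526). With the animal as a block, which compares the regions within each animal, 0.289% of genes were called higher and 0 of the 5 members were called. In that fit ACP5 was at an edgeR adjusted p of 0.179. At an unadjusted p under 0.05 were 3 of the 5 in either edgeR fit. Of all genes 24.7% were under that level without the block and 29.4% with it. DESeq2, run without the filter, called 5 of the 8 members it tested, namely ACP5, CTSK, ATP6V0D2, CKB and DCSTAMP, beside 4.92% of 28693 genes called higher. On the genes that passed the filter, an alternative chosen after the values were seen, DESeq2 called 3 of 5 members, ACP5, CTSK and CKB, beside 8.62% of genes called higher. The members were picked with this contrast known, so these counts describe them and nothing was read from them. The other 5 members had too few reads in too many libraries to pass the filter on low counts, so the 5 that passed are not a summary of all 10. With no filter edgeR fitted all 10 and called 0 of them, with 7 at an unadjusted p under 0.05, a level that 25.8% of all genes reached in that fit.

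The size of the border difference rested on different animals in different members. For ACP5 the log2 fold change was 7.10 (SE 1.71) with all animals and 3.15 (SE 1.42) with the animal as a block. It was 4.30 (SE 1.28) without animal 1022 and 0.91 (SE 0.46) without animals 1022 and 1623, a fit added after the levels were seen. For CTSK the corresponding values were 3.71 (SE 0.94), 1.82 (SE 0.78), 1.65 (SE 0.49) and 0.77 (SE 0.23). The ACP5 call held without animal 1322 and was lost without any 1 of the other 5 animals. Without 1323, 1623, 1922 or 3622 its log2 fold change was nonetheless 7.18, 7.13, 7.32 and 7.53, and those fits called 0 to 15 genes in all.

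CKB kept its size: its log2 fold change was 1.32 (SE 0.40) with all animals, 1.29 (SE 0.23) with the block and 1.05 (SE 0.31) without animals 1022 and 1623. TNFRSF11B was at 0.98 (SE 0.58), 1.29 (SE 0.34) and 0.99 (SE 0.81) in the same 3 fits. TNFRSF11A was at 0.30 (SE 0.33) with all animals and at -0.09 (SE 0.27) without animal 1022, so its sign turned on that animal. Over every gene tested, with all animals, the median was 0.04.

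**Figure D2:**
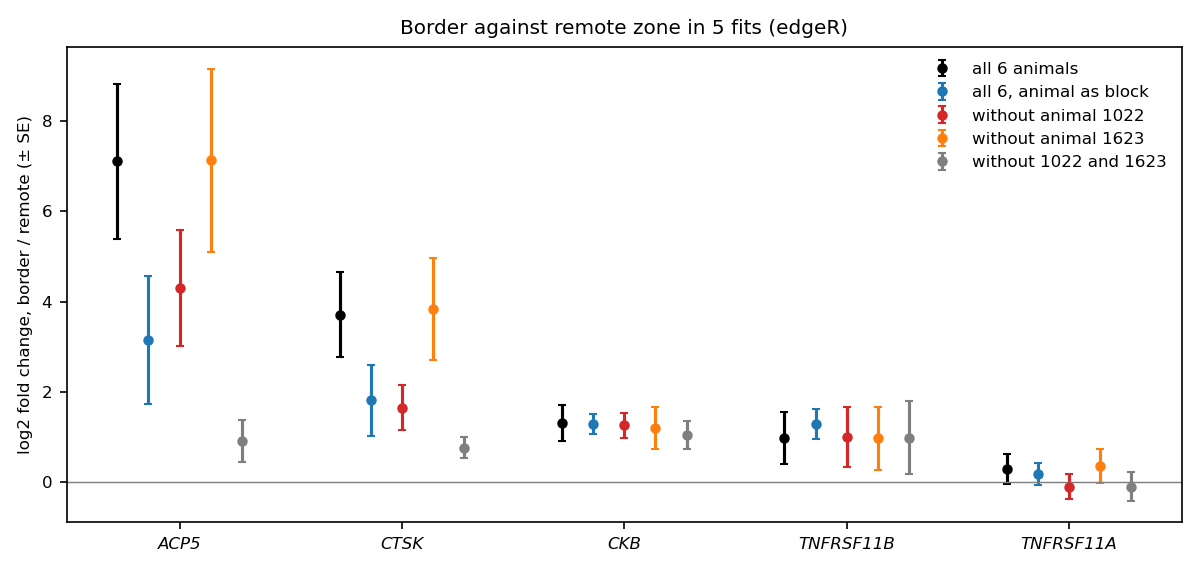
Log2 fold change between border and remote zone for the 5 members that passed the filter on low counts, from edgeR, with points for the estimate and bars for ± 1 SE, in 5 fits that differ in the animals used or in the block. ACP5 goes from 7.10 with all animals to 0.91 without animals 1022 and 1623, whereas CKB goes from 1.32 to 1.05.

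Macrophage markers were read beside the members. Of the 14 markers with an identifier, 13 had reads in every library, among them CD68, CD163 and CSF1R, and MARCO was at or near 0 throughout. The summed level was 1788 CPM in the border zone of animal 1022, 457 in that of animal 1623 and 150 to 367 CPM in the other 4 border libraries, against 134 to 280 CPM in the remote zone. Of the 13 markers tested 1, LYZ, the lysozyme of myeloid cells, was called (log2 fold change 4.61, edgeR adjusted p = 0.0404), and with the block LYZ again had the lowest value (edgeR adjusted p = 0.0814). The marker level was highest in the same border libraries as ACP5, CTSK, ATP6V0D2, DCSTAMP and CALCR, and its part in their differences was not tested. TNFRSF11B and TNFRSF11A did not share that order: TNFRSF11B was highest in animal 1323, and TNFRSF11A was highest in the border zone of animal 1022 but next highest in the remote zone of animal 1322.

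Set against CSF1R, the receptor that macrophages and osteoclasts share, ACP5 and CTSK separated the same libraries. The ratio of ACP5 to CSF1R in CPM was 1.57 in the border zone of animal 1022 and 1.04 in that of animal 1623, and it was 0.0142 to 0.0387 in the other 10 libraries. The ratio of CTSK to CSF1R was 2.32 and 2.09 in those border libraries and 0.301 to 0.760 in the other 10. The border zone of animal 1623 had 70.4 CPM of CSF1R, level with the 70.4 CPM of animal 1323 and the 69.2 CPM of animal 3622, but 73.3 CPM of ACP5 against 1.47 and 2.63 CPM. The macrophage markers CD68 and LYZ were higher in the border zone of animal 1623 than in that of animals 1323 and 3622, with CD68 at 18.4 against 8.98 and 6.78 CPM and LYZ at 53.3 against 11.2 and 17.1 CPM. ATP6V0D2 per CSF1R was 0.0943 in animal 1022 and 0.0957 in animal 1623, nearly the same ratio, and at most 0.00353 elsewhere. TNFRSF11A went the other way in animal 1022 only, with a ratio to CSF1R of 0.0577 in its border zone, the lowest of the 12 libraries. In the border zone of animal 1623 that ratio was 0.102, near the 0.0949 of animal 1323 and the 0.0936 of animal 3622.

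**Figure D3:**
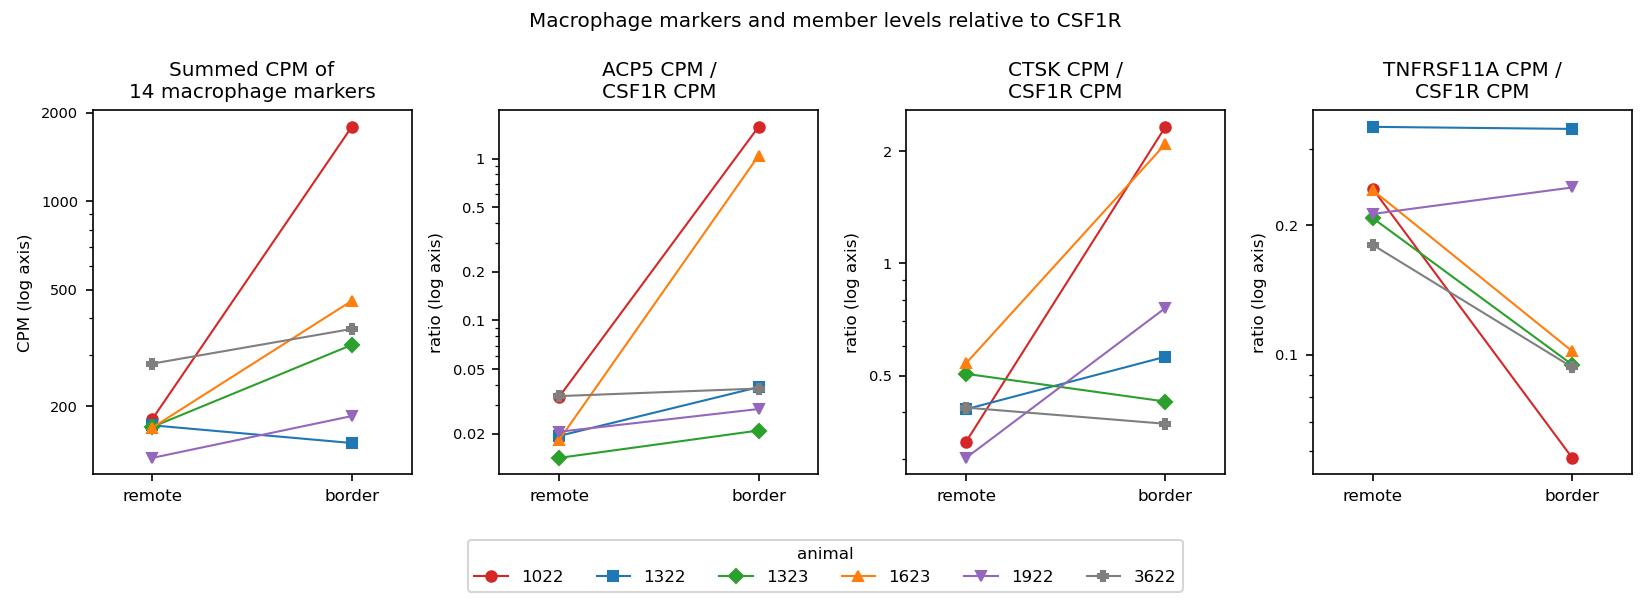
Summed CPM of 14 macrophage markers, and the ratios of ACP5, CTSK and TNFRSF11A to CSF1R, in the remote and border zone of each of 6 animals (log axes, 1 line per animal, no error bars because each point is 1 library). The ACP5 ratio is 1.57 and 1.04 in the border zone of animals 1022 and 1623 and at most 0.0387 in the other libraries.

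Other cell types were read in the same way. The summed fibroblast and matrix level was 70052 CPM in the border zone of animal 1022 and 8793 CPM in that of animal 1623, the latter within the 3261 to 12016 CPM of the other 4 border libraries, and 9 of the 11 markers were called higher in the border zone, 1 of them, POSTN, with the animal as a block. The part of the matrix level in the CTSK difference was not tested. Osteoblast and osteocyte markers summed to 24.3 CPM in the border zone of animal 1022, 18.1 CPM in that of animal 1623 and 11.4 to 22.9 CPM in the remote zone. Among them SOST, MEPE and IBSP, defining genes of bone-forming cells, were at or below 1.19 CPM in every library. That top value was IBSP in the border zone of animal 1022, with remote values of at most 0.0763 CPM. SP7 and DLX5 were also highest there, at 0.694 and 1.19 CPM, with remote values of at most 0.201 CPM. RUNX2, the transcription factor of the osteoblast lineage, was at 14.97 CPM in that library. It was at 3.12 CPM in the border zone of animal 3622, 1.82 in that of animal 1623 and 0.114 to 0.436 across remote libraries. PHEX and ALPL instead had their lowest border values in animal 1022, at 3.54 and 0.958 CPM beside remote medians of 13.98 and 5.03. The sum thus joined genes that moved in opposite directions. The smooth muscle and pericyte sum was 3082 CPM in the border zone of animal 1022, 525 to 1024 in the other border libraries and between 241 and 630 CPM across remote libraries. The dendritic sum was 41.6 CPM in the border zone of animal 1022 and 4.72 to 21.1 in the other border libraries, and the T and B cell sum was 40.3 and 7.65 to 26.4 CPM. In animal 1623 these 3 sums lay within the range of the other border libraries. Their part in the members' differences was not tested. Of the genes with an identifier, 2 of 5 dendritic and 6 of 10 T and B cell markers could be tested. No tested gene of these lists or of the smooth muscle, endothelial and cardiomyocyte lists passed the threshold, the lowest edgeR adjusted p among them being 0.0526.

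Around the members, 70 osteoclast pathway genes were listed by role, of which 63 had an identifier and 60 could be tested. The fit across all genes called 4 of the 60 higher and 0 lower in the border zone, beside 2.06% higher and 0.0144% lower of all genes. The median log2 fold change of the 60 was 0.56 beside 0.04 for all genes tested. TREM2, an immune receptor that signals through TYROBP in osteoclasts and macrophages, rose by 4.55 on the log2 scale (SE 1.03, edgeR adjusted p = 0.0396). ADAM12, a metalloprotease linked to cell fusion, rose by 5.31 on that scale (SE 1.06, edgeR adjusted p = 0.0293), and CD9, a tetraspanin of fusing cells, by 1.88 (SE 0.43, edgeR adjusted p = 0.0426). CALCRL, the receptor for CGRP and adrenomedullin and a relative of CALCR, rose by 0.72 on that scale (SE 0.16, edgeR adjusted p = 0.0338). With the animal as a block 0 of the 60 were called, beside 0.289% of all genes called higher. In that fit 23 were at an unadjusted p under 0.05 beside 29.4% of all genes. Without animal 1022 the count was 1, without 1322 it was 4, and it was 0 without 1323, 1623, 1922 or 3622. Over all genes those fits called 163 without 1022, 519 without 1322 and 0 to 15 without each of the rest. Without the border library of animal 1022 alone the pathway count was 5, including all 4, beside 307 of all genes. DESeq2 called 15 higher and 1 lower of 58 tested, beside 1412 higher and 307 lower of 28693 genes. Of the 4 genes named above, 3 were among them.

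The 4 called genes differed in how their levels were spread. TREM2 was at 21.4 CPM in the border zone of animal 1022, 4.19 in that of animal 1623 and 0.536 to 1.15 CPM in the other border libraries, above the remote range of 0 to 0.420 CPM in every case. CALCRL was at 24.3 to 38.3 CPM in the border zone and 16.1 to 24.5 CPM in the remote zone, and animal 1022 was highest by little. ADAM12 was at 170 CPM in the border zone of animal 1022, 15.7 in that of animal 1623, 1.22 to 11.9 in the other border libraries and 0.475 to 1.54 CPM in the remote zone. CD9 was at 178 CPM in the border zone of animal 1022, 61.9 in that of animal 1623, 30.0 to 59.9 in the other border libraries and 10.7 to 34.6 CPM in the remote zone.

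Upstream of the members, CSF1 had a log2 fold change of 1.32 (edgeR adjusted p = 0.0976) and CSF1R one of 1.63 (edgeR adjusted p = 0.0969). NFATC1, the transcription factor that drives osteoclast formation, was at 107 CPM in the border zone of animal 1022, 22.2 in that of animal 1623 and 12.9 to 27.6 CPM in the remote zone, with a log2 fold change of 0.84 (edgeR adjusted p = 0.200). The NFATC1 level of animal 1623 thus lay inside the remote range while its ACP5 level did not. TRAF6, the adaptor below the receptor, was at 13.6 to 22.2 CPM in the border and 14.4 to 22.0 CPM in the remote zone. LGR4, a further receptor for the TNFSF11 ligand, had a log2 fold change of -0.33 (edgeR adjusted p = 0.50), and TNFSF10 had no identifier. TCIRG1, the pump subunit of the osteoclast's ruffled border, was at 99.95 CPM in the border zone of animal 1022, 19.7 in that of animal 3622, 15.6 in that of animal 1623 and 6.78 to 13.6 CPM in the remote zone.

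By list, osteoclast receptors and adaptors had 1 of 9 genes called, cell fusion 2 of 7 and the calcitonin receptor family 1 of 5, beside 2.06% of all genes called higher. The resorption machinery had 0 of 10 genes called and 10 of 10 with a log2 fold change above 0, as had 7385 of all 13844 genes tested. The V-ATPase subunits had 0 of 14 called with a median of 0.06, and osteoclast transcription and signalling 0 of 15 called with a median of 0.31. At an unadjusted p under 0.05 there were 28 of the 60 pathway genes, beside 24.7% of all genes. Another 3 genes under the filter were picked out after their values were seen. MMP9, the gelatinase of osteoclasts and neutrophils, was at 550.0 CPM in the border zone of animal 1022, 46.3 in that of animal 1623 and at most 1.53 CPM elsewhere. SIGLEC15, a lectin of osteoclast fusion, was at 31.2, 3.67 and at most 0.122 CPM, and OSCAR, an osteoclast receptor for collagen, at 8.62, 1.20 and at most 0.428 CPM.

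**Figure D4:**
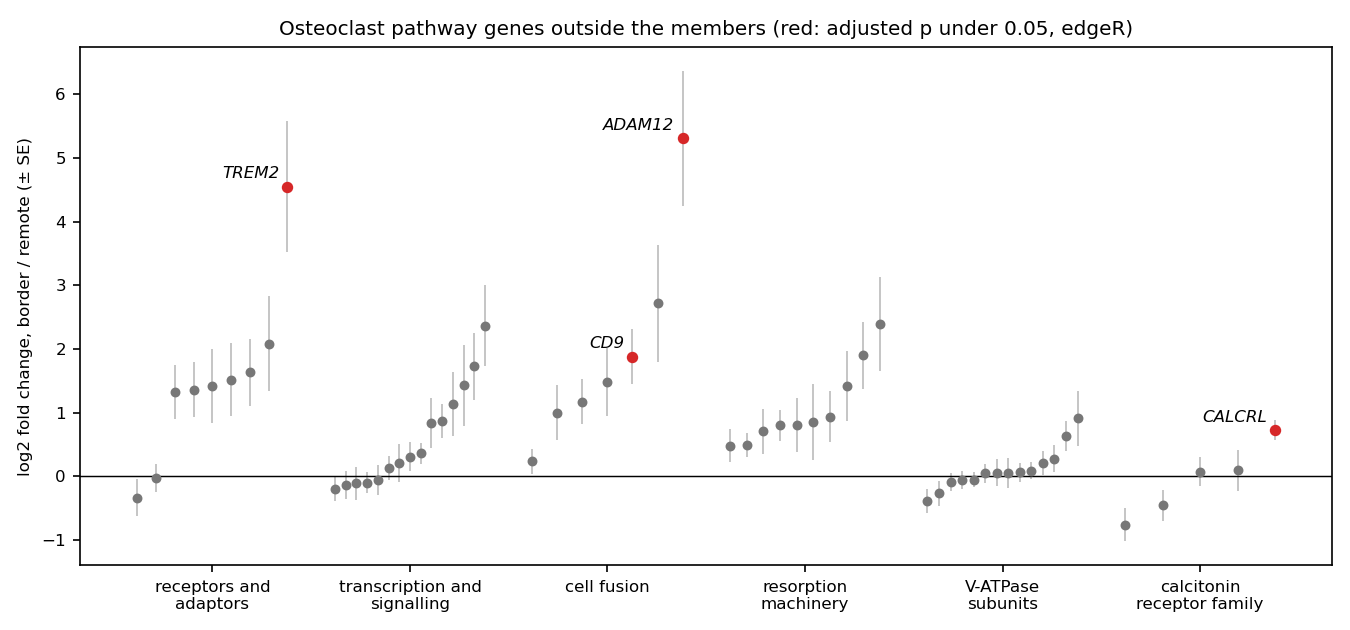
Log2 fold change between border and remote zone (edgeR, bars are ± 1 SE, all 12 libraries) of the 60 tested osteoclast pathway genes, grouped by list, with the 4 genes called in red. ADAM12 (5.31) and TREM2 (4.55) are highest, and the V-ATPase subunits have a median of 0.06, with ATP6V1A (0.91) and ATP6V0A2 (0.63) the highest of them.

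The genes whose levels were most like a member were found by Pearson correlation of log2 CPM over the 12 libraries. For ACP5 they included CCR1 (0.98), LGALS3 (0.97), CTSK (0.97) and GIMAP4 (0.96), and these values were 0.49 to 0.65 when the border libraries of animals 1022 and 1623 were left out. For CTSK they were LGALS3 (0.99), LIPA, HS2ST1, CCR1 and SCPEP1. Without those libraries the CTSK values ran from 0.63 for CCR1 and 0.82 for HS2ST1 to 0.91 for LGALS3. For CKB they were ALDH2, ATP8B4, AMBN, S100A6 and CUBN, all at 0.93. For TNFRSF11B they were CALU (0.97), ADGRG6, BRWD3, LONRF3 and RNF115, none of which was among the genes most like ACP5 or CTSK. Ranked by Spearman correlation instead, the top 5 genes shared 0 with these lists for ACP5, 0 for CTSK, 2 for CKB and 3 for TNFRSF11B. The libraries share regions, animals and depth, so these values describe likeness only.

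The stretches before the start of 4 members that stood highest in the same border libraries are shown so that their letters can be compared. Each is the 250 bases before the outermost gene start in RefSeq on Sscrofa11.1, the build the reads were aligned to, written 5′ to 3′ on the gene's strand. ACP5 has 4 RefSeq transcripts and CTSK 2, so a transcript may start elsewhere. The windows are chr2:70209856-70210105 on the minus strand for ACP5, chr4:98389209-98389458 on the plus strand for CTSK, chr4:50749374-50749623 on the minus strand for ATP6V0D2 and chr4:32928324-32928573 on the minus strand for DCSTAMP. Capitals mark matches, on either strand, to motifs of factors known from osteoclast genes: GGAAA for NFAT, GAGGAA for PU.1, TCATGTG for the M-box of MITF, TGANTCA for AP-1 and CACGTG for the E-box.
ACP5: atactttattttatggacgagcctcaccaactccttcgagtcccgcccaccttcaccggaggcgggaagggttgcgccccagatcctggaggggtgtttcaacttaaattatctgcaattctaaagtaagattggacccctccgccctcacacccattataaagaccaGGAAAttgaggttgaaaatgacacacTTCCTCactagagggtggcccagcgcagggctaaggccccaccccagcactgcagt
CTSK: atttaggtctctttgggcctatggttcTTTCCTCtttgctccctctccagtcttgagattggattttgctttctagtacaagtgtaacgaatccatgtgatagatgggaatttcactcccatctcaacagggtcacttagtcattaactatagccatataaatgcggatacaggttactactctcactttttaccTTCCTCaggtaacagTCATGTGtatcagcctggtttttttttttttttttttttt
ATP6V0D2: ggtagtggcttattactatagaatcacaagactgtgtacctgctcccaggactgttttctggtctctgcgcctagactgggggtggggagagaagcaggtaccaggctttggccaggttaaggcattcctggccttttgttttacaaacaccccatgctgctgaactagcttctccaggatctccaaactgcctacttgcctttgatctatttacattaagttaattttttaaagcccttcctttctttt
DCSTAMP: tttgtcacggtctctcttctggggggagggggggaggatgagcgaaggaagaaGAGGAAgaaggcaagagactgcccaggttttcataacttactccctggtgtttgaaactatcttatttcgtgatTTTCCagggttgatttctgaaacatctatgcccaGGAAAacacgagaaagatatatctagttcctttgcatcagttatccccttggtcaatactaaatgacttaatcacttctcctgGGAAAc

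The NFAT core was found in the windows of 5 of the 10 members, ACP5, CTSK, DCSTAMP, OCSTAMP and TNFRSF11B, against 54.4% of the windows of 20664 protein-coding genes. The PU.1 letters were in 4 of 10 members against 22.0%, and the NFAT and PU.1 letters can overlap, as they do in CTSK. The M-box letters were in CTSK alone, 40 to 34 bases before its start, against 2.02% of windows. Neither AP-1 (5.48% of windows) nor E-box letters (6.16%) were in any member's window. DCSTAMP held 3 NFAT cores and ATP6V0D2 held no match. A match is a description of letters and not of a bound site.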

How the data were processed

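The authors aligned paired-end reads from nondirectional poly(A) libraries to Sscrofa11.1 (Ensembl release 113) with STAR 2.7.10a and deposited raw counts per gene made with featureCounts 2.16.1. Reads of overlapping or antisense genes cannot be told apart. Both libraries of an animal share its number. After subtracting each region's mean, the libraries of an animal correlated at -0.03 to 0.57 (mean 0.35), and numbers were taken as pairs because they name an animal. The main edgeR fit and DESeq2 used the region alone, so their p-values treat both libraries of an animal as independent and leave the pairing out. P-values of the fit with the animal as a block measure the spread of the within-animal differences. Adjusted p-values are from the main fit unless the block is named.

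Symbols were found for 15623 identifiers. Genes were filtered with filterByExpr, scaled by TMM and tested with edgeR 4.0.16 (robust quasi-likelihood, 13844 genes, R 4.3.3), alternatives including DESeq2 1.42.0. On simulated data for this comparison (13733 genes), the test recovered 90.9% of 4-fold changes and 34% of 2-fold changes. The simulated libraries were independent, with no effect of the animal and no library set apart like the border library of animal 1022. Those rates therefore check the procedure and do not give its power in these data. The members, marker lists and pathway lists were chosen with earlier results of these data known. Named genes were all members, every pathway gene called, CSF1, CSF1R, NFATC1, TRAF6, LGR4, TNFSF10, ATP6V0D1, CALCRL and TCIRG1, and, for ACP5, CTSK, CKB and TNFRSF11B, the 5 most correlated genes (prior count 2), of which 1 is not reported here. Further genes are named as comparisons or were picked after their values were seen.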

Additional observations from a re-analysis of the deposited data

Results flagged for a closer look

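A library was singled out when its gap to the nearest other library of its region took up more of the region's range than Dixon's 95% limit for 6 samples. For independent, normally distributed values chance does so in about 1 in 20 groups. The groups here hold skewed levels and counts near 0, and the same genes enter on both scales, so that rate is not a yardstick for them. Singled out were 18 of 38 groups, 14 of 19 in CPM and 4 of 19 on the log2(CPM + 0.1) scale. The border library of animal 1022 was the high one for ACP5 (646 CPM), CTSK (956 CPM), ATP6V0D2 (38.8 CPM), CKB (134 CPM), DCSTAMP (7.60 CPM), OCSTAMP (1.12 CPM, and 0.29 on the log2 scale), CALCR (10.9 CPM, and 3.46 on the log2 scale), TNFRSF11A (23.8 CPM) and TNFSF11 (1.19 CPM). On the log2 scale ACP5, CTSK, ATP6V0D2 and DCSTAMP did not stand out in this way, since the border library of animal 1623 lay between that of animal 1022 and the others.

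Animal 1323 was the high one for TNFRSF11B in the border zone (24.6 CPM) and in the remote zone (18.0 CPM), and for CALCR in the remote zone (0.527 CPM). In the remote zone animal 1322 was high for TNFRSF11A (15.2 CPM, and 3.94 on the log2 scale). The TNFSF11 value of animal 1922 in the remote zone (0.0520 CPM, and -2.72 on the log2 scale) is 1 count among libraries at 0.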

How the results depend on the processing

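Over all genes 287 were called, against 41 with the animal as replicate block, 1719 with DESeq2 and no filter (1412 higher and 307 lower, against 285 and 2), 1476 with DESeq2 on the filtered genes (1186 higher and 290 lower; chosen after the values were seen), 1551 with library totals only, 139 with no filter, 149 with at least 10 counts in every library, 0 to 519 when 1 animal or library was left out, and 4 without animals 1022 and 1623. Members called went from 1 to 0 with the block, DESeq2 size factors, no filter, the 10-count minimum, no mitochondrial genes, or without animals 1022 and 1623, to 5 with DESeq2, to 3 with DESeq2 on the filtered genes or with library totals, and to 0 to 2 when 1 animal or library was left out; at an unadjusted p under 0.05 there were 2 to 7. Pathway genes called went from 4 to 0 with the block, no filter, or without both animals, to 2 with DESeq2 size factors or the 10-count minimum, to 16 with DESeq2 and with library totals, to 14 with DESeq2 on the filtered genes, and to 0 to 5 when 1 animal or library was left out. TNFRSF11A changed sign, ranging from -0.0927 to 0.489 when 1 animal or library was left out and at -0.0930 without both animals. ACP5, the member called, lost its call in 13 of 17 alternatives and kept its direction in all 17. With DESeq2 size factors, no filter, the 10-count minimum or no mitochondrial genes its log2 fold change was 7.06, 7.02, 7.17 and 7.11, beside 7.10 in the main fit. Its edgeR adjusted p in those fits ran from 0.0511 to 0.136. CTSK gained a call in 4 of 17 and CKB in 3 of 17. The median of all genes moved from 0.04 to 0.32 with library totals, to 0.35 with DESeq2 and no filter, and to 0.75 with no filter, and fold changes there are to be read relative to it. The other causes were not tested. Depth limited OCSTAMP, TNFSF11 and DCSTAMP, whose counts in most libraries were at or near the 3-count limit.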
